A study of Mus musculus with 14 samples.

Results

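The genes described here are 9 steroid hormone receptors and their cofactors: the receptors Pgr, Esr1, Esr2 and Nr3c1, the co-chaperones Fkbp4 and Fkbp5, the coactivators Ncoa1 and Ncoa2, and the membrane protein Pgrmc1. Members were the probe sets whose single gene symbol in the platform annotation was one of these names, which gave 27 of the 45037 non-control probe sets on the array. Of the 27, 17 were bright enough on average, at or above the median probe set of the array, to be tested, and these covered 8 of the 9 genes. Esr2 had 1 probe set, and it fell below the filter.

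Whole mouse uteri at day 3.5 of gestation, before implantation, were profiled on 14 one-colour arrays. All females were C57BL/6. The 4 groups were homozygous Folr4 mutants given folinic acid (KO folinic acid, n = 4), homozygous Folr4 mutants given saline (KO saline, n = 3), wild type given folinic acid (WT folinic acid, n = 3) and wild type given saline (WT saline, n = 4). Folr4 is now named Izumo1r, and the labels name no promoter or tissue-specific driver for its mutation. Folinic acid, a reduced folate, was injected intraperitoneally at 12.5 mg/kg on 2 occasions, 10 days and 3 days ahead of mating. The series addresses whether this genotype changes how uterine gene expression responds to preconception folate.

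Ovarian progesterone and oestrogen act on the uterus through nuclear receptors, which bind the hormone and then regulate genes on DNA. Before binding, the receptors are held in complexes with heat shock proteins and with the immunophilins Fkbp4 and Fkbp5, and once on DNA they recruit coactivators such as Ncoa1 and Ncoa2. In the mouse uterus, progesterone dominance followed by a small rise of oestrogen opens the brief period in which an embryo can implant, and day 3.5 falls close to its start.

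Arrays had median signals of 130.0 to 157, and pairs of arrays had Spearman correlations of 0.925 to 0.963. RNA integrity was read from the ratio of 3-prime to 5-prime actin signal, which ranged from 1.54 to 3.64 with the highest value on WT saline replicate 3. All 5 uterine identity markers (Hoxa10, Hoxa11, Hand2, Foxa2 and Wnt7a) passed the filter. Of 5 measured ovary and oviduct markers, 3 passed it (Star, Inha and Ovgp1), while Cyp11a1 and Fshr did not. Ovgp1 averaged 4121 in KO folinic acid, 5738 in KO saline, 7894 in WT folinic acid and 8235 in WT saline uteri. The summed signal of the 5 ran from 1768 (KO folinic acid replicate 3) to 15608 (WT folinic acid replicate 3). Its part in the values of the members was not tested. The Folr4 probe set was below the filter, at 6.14 to 70.2 in the 7 KO uteri and 13.5 to 72.4 in the 7 WT uteri, and its place relative to the mutation is not given, so it did not check the genotype labels. Titles of 2 WT saline samples share a number, as do those of 2 WT folinic acid samples, and whether such samples are related is not stated. P-values weigh a difference against the spread between these samples within groups, pooled over the 4 groups, and treat the samples as unrelated.

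None of the 17 tested probe sets passed an adjusted p of 0.05 in limma's test in any of 7 comparisons. Over all 22519 probe sets tested, 0.00444% passed it for KO against WT under saline, 0.00444% for KO against WT under folinic acid, 0% for folinic acid in WT and 0% for folinic acid in KO. It was 0% for the interaction of genotype and folinic acid, 0.00444% for genotype averaged over injections and 0.00444% for folinic acid averaged over genotypes. At an unadjusted p under 0.05, 2 of 17 member probe sets were lower after folinic acid in KO uteri (1416362_a_at of Fkbp4 and 1460591_at of Esr1), against 6.75% of all probe sets in that direction. In the average over genotypes 1 of 17 was lower at that level, against 4.88%, and in the other 5 comparisons 0 of 17 reached that level in either direction. In those 5, in the order above, 3.11%, 3.81%, 2.71%, 4.9% and 2% of all probe sets did so in either direction. A count of 1 or 2 among 17 is near the share of the whole array. With 1 array at a time left out, the count of 2 became 0 without KO folinic acid replicate 1, 1 without KO saline replicate 2 or 3 and 3 without KO folinic acid replicate 4, and the count of 1 ran from 0 to 2. Over the 17 probe sets the median log2 difference after folinic acid in KO uteri was -0.21, against 0.01 over all probe sets tested.

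**Figure D1:**
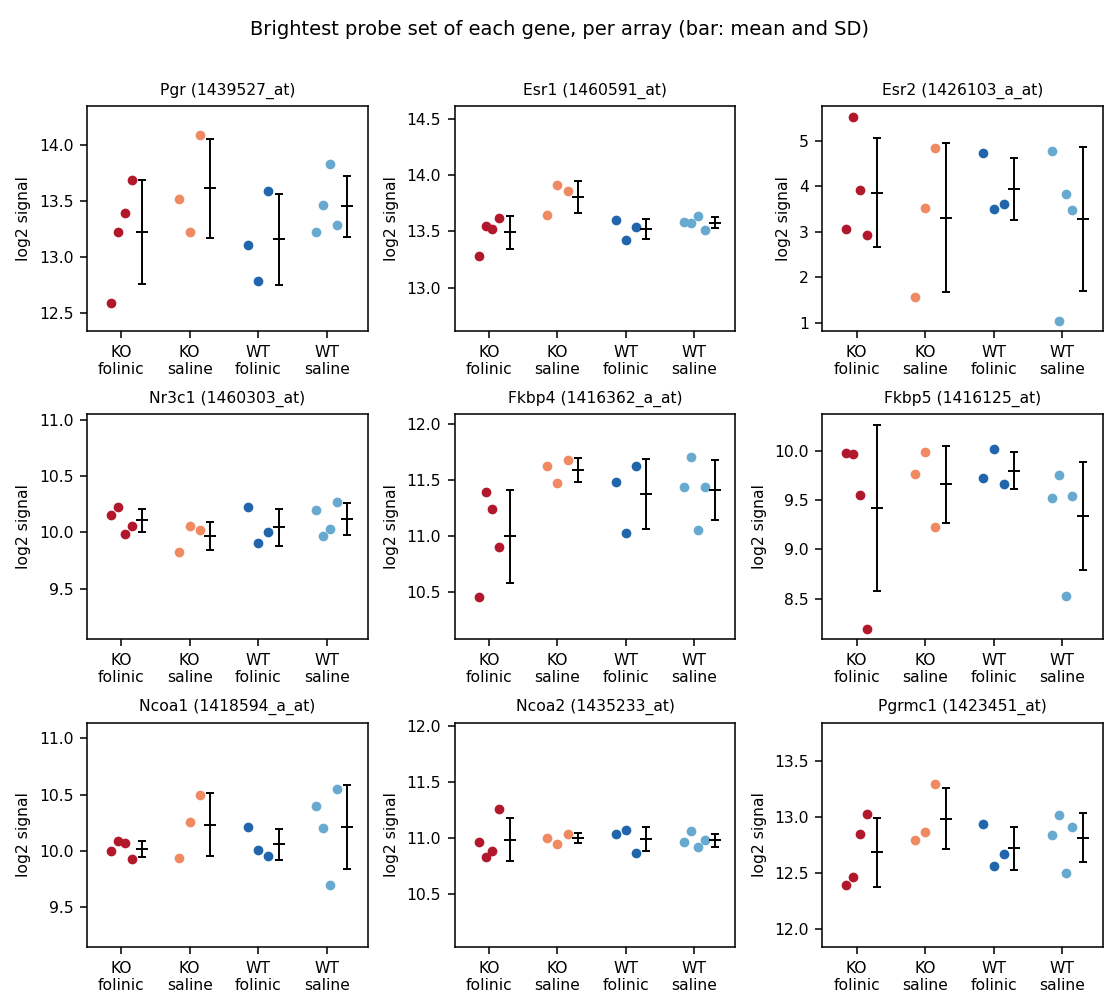
Log2 signal of the brightest probe set of each of the 9 genes on each of the 14 arrays, by group (KO folinic acid, KO saline, WT folinic acid and WT saline, left to right). Points are arrays and bars show the mean and SD. The 4 KO folinic acid arrays for Fkbp4, between 1410 and 2690 on the linear scale, all sit below the 3 KO saline arrays.

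Pgr encodes the progesterone receptor, which the uterus needs for implantation and decidualization. Its brightest probe set, 1439527_at, read 6174, 9529, 10711 and 13158 in KO folinic acid uteri and 11686, 9579 and 17432 in KO saline uteri. It read 8793, 7048 and 12275 in WT folinic acid uteri and 9582, 11268, 14519 and 10004 in WT saline uteri. All 4 groups overlapped, and both the lowest array (KO folinic acid replicate 1) and the highest (KO saline replicate 3) were in KO uteri.

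The order of group means for Pgr was KO saline, WT saline, KO folinic acid and WT folinic acid, and no neighbours in it were apart by more than their spread. The log2 difference after folinic acid was -0.39 ± 0.26 in KO uteri (95% interval -0.95 to 0.17; SE) and -0.29 ± 0.26 in WT uteri (-0.85 to 0.27). The first was -0.15 without KO saline replicate 3, and the second was -0.11 without WT folinic acid replicate 2. KO and WT differed by 0.16 ± 0.26 under saline and by 0.06 ± 0.26 under folinic acid. The second tested probe set of Pgr, 1421444_at, gave -0.26 ± 0.38 after folinic acid in KO uteri and -0.20 ± 0.38 in WT uteri. Its signal was low, 113 to 393 over the 14 arrays.

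Esr1 encodes oestrogen receptor alpha, the main oestrogen receptor of the uterus. Probe set 1460591_at read 9956, 11958, 11734 and 12627 in KO folinic acid uteri, against 12815, 15450 and 14830 in KO saline uteri. It read 12408, 11005 and 11890 in WT folinic acid uteri and 12269, 12194, 12770 and 11720 in WT saline uteri. The 3 KO saline uteri were above all other 11 arrays, and the other 3 groups overlapped.

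After folinic acid the log2 difference of this Esr1 probe set was -0.31 ± 0.12 in KO uteri (95% interval -0.56 to -0.07) with an adjusted p = 0.288 in limma's test. In WT uteri it was -0.06 ± 0.12, and the interaction was -0.26 ± 0.16 (adjusted p = 0.91). KO minus WT was 0.23 ± 0.12 under saline (adjusted p = 0.9998), where the groups did not overlap, as for 2.06% of all probe sets in that direction. Both comparisons use the KO saline arrays, the ones that were high.

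The size of the Esr1 difference depended on the scaling. Probe sets in the upper 2 percent by mean signal, 901 in all, had a median log2 difference of -0.27 after folinic acid in KO uteri, of -0.11 after folinic acid in WT uteri and of 0.11 for KO against WT under saline. Esr1 1460591_at, Pgr 1439527_at and Pgrmc1 are among them. After quantile normalization, which gives every array the same distribution of signals, the median of the 901 after folinic acid in KO uteri was -0.03 and that of Esr1 1460591_at was -0.13. For Esr1 1460591_at the same step gave 0.11 for KO minus WT under saline, 0.03 after folinic acid in WT uteri, where the sign turned, and -0.16 for the interaction. The corresponding value after folinic acid in KO uteri was -0.22 for Pgr, -0.21 for Pgrmc1 and -0.58 for Fkbp4 1416362_a_at. The second Esr1 probe set, 1435663_at, did not follow the first: it differed by 0.01 ± 0.15 after folinic acid in KO uteri and by -0.02 ± 0.15 between KO and WT under saline. Over the 14 arrays the Pearson correlation of the pair was -0.12, a description with all arrays and both probe sets drawn from the same samples.

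Esr2 encodes oestrogen receptor beta, which in the mouse is best known from granulosa cells of the ovary. Its single probe set averaged 19.4 ± 18.3 in KO folinic acid uteri, 14.4 ± 13.1 in KO saline uteri, 16.7 ± 8.58 in WT folinic acid uteri and 13.7 ± 10.4 in WT saline uteri (SD). The groups overlapped, and the 14 values ran between 2.07 and 46.5. The probe set was below the filter and was not tested.

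Nr3c1 encodes the glucocorticoid receptor, which shares DNA response elements with the progesterone receptor. It had 6 probe sets, of which 3 passed the filter. The brightest, 1460303_at, averaged 1104 ± 81.0 in KO folinic acid uteri, 1003 ± 84.6 in KO saline uteri, 1061 ± 122 in WT folinic acid uteri and 1115 ± 111 in WT saline uteri (SD). The order was WT saline, KO folinic acid, WT folinic acid and KO saline, with overlap between all neighbours. None of its 4 pairwise differences had an interval reaching beyond 1.36-fold in either direction. Across the 3 tested probe sets the log2 difference after folinic acid in KO uteri was 0.14 ± 0.14, 0.18 ± 0.22 and 0.07 ± 0.23.

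**Figure D2:**
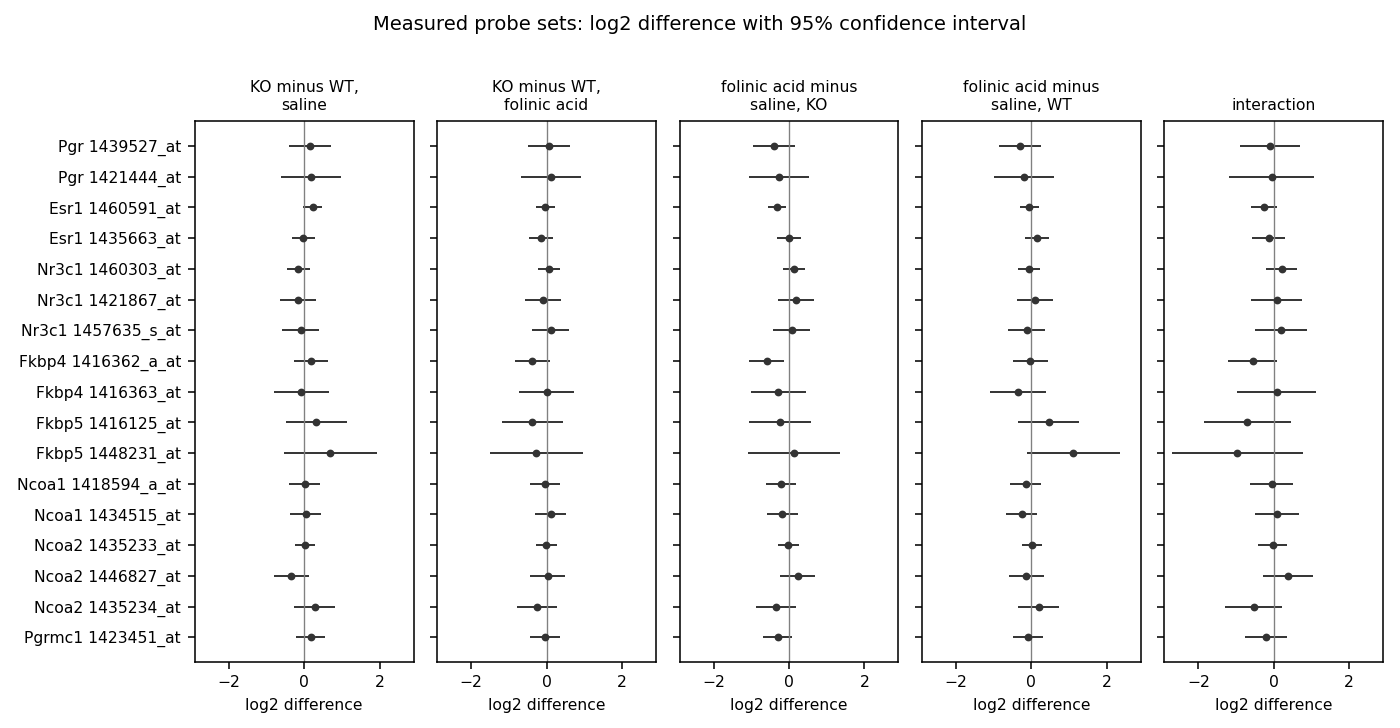
Log2 difference with its 95% confidence interval (x axis) for the 17 tested probe sets (y axis), one panel for each comparison. From left to right these are KO minus WT under saline and under folinic acid, folinic acid minus saline in KO and in WT, and the interaction. Only 1416362_a_at of Fkbp4 and 1460591_at of Esr1 have intervals clear of 0. Both are in the panel of folinic acid minus saline in KO, and neither passed the adjusted threshold.

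Fkbp4 and Fkbp5 are immunophilins that bind the same heat shock protein complex. In the mouse, Fkbp4 favours progesterone receptor activity and its loss leaves the uterus poorly responsive to progesterone, whereas Fkbp5 lowers hormone binding by the glucocorticoid receptor and is itself induced by steroid hormones. Their promoter windows are shown with that of Pgr because these 3 genes had the largest gaps between group means among the brightest tested probe sets, 1 a gene; Esr2, below the filter, is left out of that ranking. Each window runs 250 bases before to 50 bases after an annotated start in RefSeq (GRCm38.p6), 5′ to 3′ on the gene's strand. The Pgr window lies inside the annotated span of the gene, which begins at 8898900, so it is not at the outermost start. Capitals mark the GC box GGGCGG on either strand.
Pgr (chr9:8899583-8899882, plus strand): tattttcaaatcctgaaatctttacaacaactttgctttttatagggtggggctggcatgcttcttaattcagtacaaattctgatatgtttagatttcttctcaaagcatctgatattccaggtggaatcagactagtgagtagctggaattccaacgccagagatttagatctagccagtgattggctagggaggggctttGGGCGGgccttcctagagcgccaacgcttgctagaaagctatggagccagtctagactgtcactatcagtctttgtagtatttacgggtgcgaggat
Fkbp4 (chr6:128438607-128438906, minus strand): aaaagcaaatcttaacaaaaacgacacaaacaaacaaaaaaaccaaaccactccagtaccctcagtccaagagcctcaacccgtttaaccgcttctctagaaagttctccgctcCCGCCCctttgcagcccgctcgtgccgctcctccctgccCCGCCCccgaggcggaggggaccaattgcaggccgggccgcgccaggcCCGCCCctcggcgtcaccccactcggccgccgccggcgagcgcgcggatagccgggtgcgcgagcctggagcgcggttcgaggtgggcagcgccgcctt
Fkbp5 (chr17:28486100-28486399, minus strand): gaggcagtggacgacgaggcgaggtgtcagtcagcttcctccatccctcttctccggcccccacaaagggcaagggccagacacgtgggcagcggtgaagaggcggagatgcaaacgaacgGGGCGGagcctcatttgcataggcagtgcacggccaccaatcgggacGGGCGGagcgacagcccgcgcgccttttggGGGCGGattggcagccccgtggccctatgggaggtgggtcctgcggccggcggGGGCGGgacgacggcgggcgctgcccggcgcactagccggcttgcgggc
In all, 8 windows were found for 7 of the 9 genes. The GC box GGGCGG occurred in 5 of the 8, among them 1 copy for Pgr, 3 for Fkbp4 and 4 for Fkbp5, and in 35.7% of all 32851 windows. A full oestrogen response element, GGTCA and TGACC with 3 bases between, occurred in 0 of 8 (0.07% of all windows). A full glucocorticoid and progesterone response element, AGAACA and TGTTCT with 3 bases between, occurred in 0 of 8 (0.00913%), and a heat shock element, GAA, TTC and GAA with 2 bases between each, in 0 of 8 (0.603%). The single site TGTTCT, which is part of the second of these, was found in 2 of 8, for Ncoa1 and Pgrmc1 (19% of all windows), and AGGTCA, which overlaps the first, in 0 of 8 (16.3%). Both strands were searched, and an absence says only that these letters are not in these windows.

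In the 4 pairwise comparisons, Fkbp4 gave the largest log2 difference among the brightest tested probe sets. Probe set 1416362_a_at read 1410, 2690, 2421 and 1921 in KO folinic acid uteri, against 3157, 2840 and 3275 in KO saline uteri. In WT uteri it read 2868, 2084 and 3158 after folinic acid and 2781, 3344, 2131 and 2774 after saline. All 4 KO folinic acid uteri were below all 3 KO saline uteri, as for 5.69% of all probe sets in that direction, while the WT groups overlapped. The order of group means was KO saline, WT saline, WT folinic acid and KO folinic acid.

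The log2 difference of Fkbp4 1416362_a_at after folinic acid was -0.59 ± 0.22 in KO uteri, a level 1.51-fold lower (95% interval -1.05 to -0.13; adjusted p = 0.285, limma). It was -0.03 ± 0.22 in WT uteri. The interaction, which tests whether the response to folinic acid differed between genotypes, was -0.56 ± 0.31 (95% interval -1.21 to 0.09; adjusted p = 0.905). KO against WT under folinic acid gave -0.38 ± 0.22 and under saline 0.18 ± 0.22. The KO difference ran from -0.72 to -0.41 when 1 array at a time was left out. The second tested probe set, 1416363_at, read 122, 400, 251 and 248 in KO folinic acid uteri and 414, 233 and 241 in KO saline uteri. These overlapped, with a log2 difference of -0.28 ± 0.34 that became 0.03 without KO folinic acid replicate 1.

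KO folinic acid replicate 1 had the lowest value of all 14 arrays for Pgr 1439527_at, for Esr1 1460591_at, for both tested Fkbp4 probe sets and for Pgrmc1. That uterus also had the highest summed signal of 8 leukocyte markers (5 of them above the filter), 42222, against 7488 to 16874 in the other 3 KO folinic acid uteri and 6964 to 12780 in KO saline uteri. Its summed signal of 9 epithelial markers was the lowest, 23541. Without it the log2 difference after folinic acid in KO uteri was -0.41 for Fkbp4 1416362_a_at and -0.24 for Esr1 1460591_at. In bulk tissue, fewer cells of a type and less RNA per cell cannot be told apart, and the part of these markers in the differences was not tested. The actin 3-prime to 5-prime ratio of that uterus, 1.54, was also the lowest of the 14 arrays. The ratio was 2.19, 3.12 and 1.74 in the other 3 KO folinic acid uteri and 3.00, 3.01 and 2.11 in the KO saline uteri. A fit with this ratio as a covariate is among the other settings.

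Fkbp5 varied more between arrays of the same group than most of the array. Its within-group SD of log2 signal was 0.58 for 1416125_at and 0.89 for 1448231_at, above those of 93.0% and 98.6% of probe sets tested, for which the median was 0.29. Probe set 1416125_at read 1008, 999, 750 and 293 in KO folinic acid uteri and 871, 1015 and 598 in KO saline uteri. In WT uteri it read 846, 1034 and 809 after folinic acid and 737, 862, 370 and 747 after saline. One array in each of 3 groups was low, and the groups overlapped.

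For 1448231_at the values were 294, 212, 263 and 112 in KO folinic acid uteri and 218, 286 and 107 in KO saline uteri. They were 218, 267 and 270 in WT folinic acid uteri and 289, 158, 31.1 and 128 in WT saline uteri. The same 3 arrays were the lowest, and WT saline spanned the widest range. After folinic acid in WT uteri the log2 difference was 0.46 ± 0.38 for 1416125_at and 1.11 ± 0.58 for 1448231_at (95% interval -0.12 to 2.34), and without WT saline replicate 3 these values were 0.19 and 0.48. In KO uteri the values were -0.24 ± 0.38 and 0.14 ± 0.58. Both changed sign when 1 array was left out: the first was 0.17 without KO folinic acid replicate 4, and the second was -0.27 without KO saline replicate 3 and -0.03 without KO folinic acid replicate 1. The interaction was -0.70 for 1416125_at and -0.97 for 1448231_at, neither at an unadjusted p under 0.05 in limma's test. The pairwise intervals for 1448231_at reached up to 5.05-fold, the widest among the members, so only a large change of that probe set could have been seen.

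The 3 arrays with the least Fkbp5 were the 3 with the most Pgr. KO folinic acid replicate 4 read 293 for Fkbp5 1416125_at and 13158 for Pgr 1439527_at, KO saline replicate 3 read 598 and 17432, and WT saline replicate 3 read 370 and 14519. On the other 11 arrays Fkbp5 lay between 737 and 1034 and Pgr between 6174 and 12275. The 3 arrays belong to 3 different groups, so the pattern lies within groups and not between them. Zbtb16, a transcription factor gene induced by glucocorticoids and progesterone in several tissues, is shown because it was among the 3 genes nearest to Fkbp5 1416125_at over these same arrays, so its values restate that choice: 248, 350 and 210 on the 3 arrays, against 402 to 806 on the other 11. Their actin 3-prime to 5-prime ratios were 1.74, 2.11 and 3.64, and the part of RNA quality in the pattern was not tested. Pgr 1421444_at followed on 2 of the 3 arrays. It had its highest values of all 14 on KO saline replicate 3, at 393, and KO folinic acid replicate 4, at 248.3, but its lowest, 113, on WT saline replicate 3. The pattern was seen in these values first and was not tested.

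**Figure D3:**
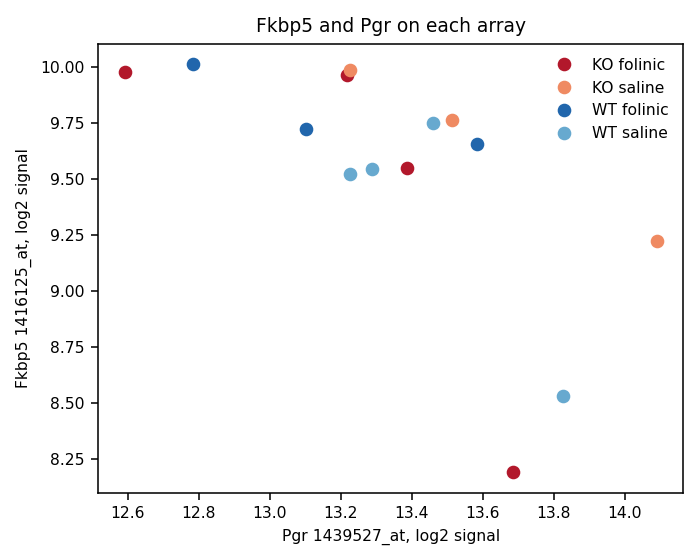
Fkbp5 1416125_at (y axis) against Pgr 1439527_at (x axis), both as log2 signal, on each of the 14 arrays, coloured by group. The 3 arrays with the lowest Fkbp5, at 293, 370 and 598 on the linear scale, are the 3 farthest to the right, and they come from 3 groups.

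Ncoa1 and Ncoa2 encode coactivators of the same small family, of which Ncoa2 is needed in mouse uterine cells for progesterone-dependent implantation. Ncoa1 1418594_a_at averaged 1038 ± 52.3 in KO folinic acid uteri, 1216 ± 232 in KO saline uteri, 1069 ± 105 in WT folinic acid uteri and 1215 ± 290 in WT saline uteri (SD), with overlap between all groups. After folinic acid its log2 difference was -0.21 ± 0.19 in KO uteri and -0.16 ± 0.19 in WT uteri, and for the second probe set, 1434515_at, the values were -0.18 ± 0.19 and -0.26 ± 0.19.

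Ncoa2 1435233_at had the smallest differences between groups of the 17 probe sets. It averaged 2039 ± 284 in KO folinic acid uteri, 2043 ± 62.7 in KO saline uteri, 2038 ± 149 in WT folinic acid uteri and 2019 ± 84.4 in WT saline uteri. The 4 means lay within 0.02 on the log2 scale, and no interval of a pairwise difference reached beyond 1.22-fold. The other 2 tested probe sets of Ncoa2 were dimmer and less even. After folinic acid in KO uteri, 1446827_at differed by 0.23 ± 0.22 and 1435234_at by -0.34 ± 0.25, in opposite directions. Of the 7 genes with several tested probe sets, 4 had all of them of 1 sign in that comparison.

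Pgrmc1 encodes a haem-binding membrane protein linked to rapid progesterone effects and unrelated in sequence to the nuclear receptors. Its single probe set read 5393, 5655, 7386 and 8345 in KO folinic acid uteri and 7090, 7492 and 10076 in KO saline uteri. It read 7841, 6044 and 6505 in WT folinic acid uteri and 7330, 8276, 5812 and 7710 in WT saline uteri. All groups overlapped. After folinic acid the log2 difference was -0.30 ± 0.18 in KO uteri (95% interval -0.69 to 0.09) and -0.10 ± 0.18 in WT uteri, and KO differed from WT by 0.17 ± 0.18 under saline.

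The probe sets most like each member over the 14 arrays were found by Pearson correlation of log2 signal with all other named, tested genes. For Fkbp4 1416362_a_at the 3 nearest were Slc4a1ap (0.95), Extl3 (0.93) and Thrsp (0.93). For Fkbp5 1416125_at they were D630045J12Rik (0.94), Basp1 (0.94) and Zbtb16 (0.92), and for Pgr 1439527_at they were Ddr1 (0.89), Zfp420 (0.89) and Arhgef19 (0.85). Esr1 1460591_at was nearest to Tsc22d1 (0.86), Nr3c1 1460303_at to Klf7 (0.86), Ncoa1 1418594_a_at to Mrpl16 (0.91), Ncoa2 1435233_at to Plekhg1 (0.91) and Pgrmc1 to Foxl2 (0.93). Each is among the highest of the correlations with all tested genes, over arrays that share scaling and RNA quality, and no p is attached.

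The 4 lists drawn up around these genes covered other coregulators and chaperones, and known targets of the progesterone, oestrogen and glucocorticoid receptors. They were drawn up with earlier results of these data known. The genes of a list were read on the same arrays and are not replicates. No gene of any list passed an adjusted p of 0.05 in limma's test in any of the 7 comparisons, and counts at an unadjusted p under 0.05 follow. Of 17 measured progesterone receptor targets, 15 had a lower mean after folinic acid in KO uteri, 8 of them at that level, and 1 of the other 2 was higher at that level. The count of 8 ran from 4 to 10 when 1 array at a time was left out, with 4 without KO folinic acid replicate 4, KO saline replicate 2 or KO saline replicate 3, and 5 without KO saline replicate 1, WT folinic acid replicate 1 or WT folinic acid replicate 2. Over all probe sets 6.75% were lower and 6.07% higher. The list's median log2 difference was -0.71, between -0.86 and -0.49 when 1 array at a time was left out, against 0.01 over all probe sets. In WT uteri the median after folinic acid was -0.02, with 9 of 17 lower. Of the 17, 0 were at an unadjusted p under 0.05, against 2.71% of all probe sets in either direction.

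Among the progesterone targets, Lrp2, an endocytic receptor of epithelia, averaged 1237 ± 1954 in KO folinic acid uteri and 3863 ± 679 in KO saline uteri (SD). Its log2 difference was -3.37 ± 0.99 (adjusted p = 0.199). Ihh, the epithelial hedgehog ligand that signals to the stroma, averaged 406 ± 304 in KO folinic acid uteri and 964 ± 229 in KO saline uteri, a log2 difference of -1.61 ± 0.56 (adjusted p = 0.259). KO against WT under folinic acid, which shares the KO folinic acid arrays, gave a list median of -0.38 with 14 of 17 lower, and -0.23 without KO folinic acid replicate 4 or -0.24 without WT folinic acid replicate 1. KO against WT under saline lay the other way, with a median of 0.32 and 13 of 17 higher, and 0.08 without WT saline replicate 3. The KO saline arrays of that comparison are also those behind the median of -0.71. Under folinic acid Cyp26a1, a retinoic acid hydroxylase, differed by -1.52 ± 0.47 (adjusted p = 0.999).

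Oestrogen receptor targets lay on the other side. Of 15 measured, 13 had a higher mean after folinic acid in KO uteri, 4 of them at an unadjusted p under 0.05, and 1 was lower at that level. Over all probe sets 6.07% were higher and 6.75% lower at that level. The count of 4 was 10 without KO folinic acid replicate 2 and 1 without KO saline replicate 2. The median log2 difference was 0.49, and 0.39 to 0.67 when 1 array at a time was left out. In WT uteri 12 of 15 were also higher after folinic acid, 0 of them at that level, with a median of 0.07 that ran from -0.002 without WT folinic acid replicate 2 to 0.31 without WT folinic acid replicate 1. Over all probe sets 2.71% were at that level in either direction in WT uteri. Lcn2, a secreted iron-siderophore carrier, averaged 10482 ± 9094 in KO folinic acid uteri and 1074 ± 823 in KO saline uteri, with a log2 difference of 2.97 ± 1.08 (adjusted p = 0.283). Padi1, a protein citrullinating enzyme, differed by 1.64 ± 0.59 (adjusted p = 0.277). Igf1, of the same list, lay the other way, at 7294 ± 2766 in KO folinic acid and 12017 ± 2601 in KO saline uteri (SD). Its interaction of genotype and folinic acid was -1.23 ± 0.50 (adjusted p = 0.905, limma). KO against WT under folinic acid gave a list median of 0.54, with 13 of 15 higher, and 0.20 without KO folinic acid replicate 4.

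Of 15 glucocorticoid receptor targets, 8 were higher and 7 lower after folinic acid in KO uteri, with a median of 0.01 that became -0.41 without KO saline replicate 3. Sgk1, a kinase that regulates epithelial sodium transport, differed by -0.90 ± 0.28 (adjusted p = 0.225), and Tsc22d3, a leucine zipper protein induced by glucocorticoids, by -0.77 ± 0.26 (adjusted p = 0.258).

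Of 21 other coregulators and chaperones, 16 were lower after folinic acid in KO uteri, with a median of -0.10 against 0.01 over all probe sets. At an unadjusted p under 0.05, 2 of the 21 were lower (1 to 3 when 1 array at a time was left out), against 6.75% of all probe sets. A count of 2 among 21 is near that share. Hspa8, the constitutive heat shock protein that acts early in the assembly of receptor complexes, averaged 32494 ± 5921 in KO folinic acid uteri and 52636 ± 4321 in KO saline uteri. Its log2 difference was -0.71 ± 0.16, with an adjusted p of 0.126 in limma's test. Hspa8 is among the upper 2 percent of probe sets by signal, whose median in this comparison was -0.27, and the part of scaling was not tested. Pgrmc2, the relative of Pgrmc1, differed by -0.42 ± 0.16 (adjusted p = 0.297).

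Summed stromal markers separated the folinic acid from the saline groups in both genotypes, while summed epithelial, smooth muscle and endothelial markers overlapped. Summed epithelial markers, 9 of 9 measured above the filter, ran between 23541 and 42051 in KO folinic acid uteri and between 40887 and 45739 in KO saline uteri. They ran between 31001 and 46719 in WT folinic acid uteri and between 27004 and 51088 in WT saline uteri. Summed stromal markers, 8 of 8 above the filter, were lower after folinic acid without overlap, at 126347 to 135637 in KO folinic acid uteri against 140572 to 171658 in KO saline uteri. In WT uteri they were 119660 to 127806 after folinic acid against 145616 to 167990 after saline. Over all probe sets tested, 5.69% were lower without overlap in KO uteri, and the share in WT uteri is not given. Not every marker moved as the sum did. Hand2, a stromal marker, averaged 2199 in KO folinic acid and 2661 in KO saline uteri. In WT uteri it averaged 2795 after folinic acid and 2730 after saline. The sums are of linear signals on the deposited scaling, so brighter genes weigh more in them. On that scaling the upper 2 percent of probe sets also had lower medians after folinic acid, -0.27 in KO uteri and -0.11 in WT uteri on the log2 scale. The part of scaling in the stromal sums was not tested. Nor was the part of the summed markers in the values of the members and of the target lists.

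**Figure D4:**
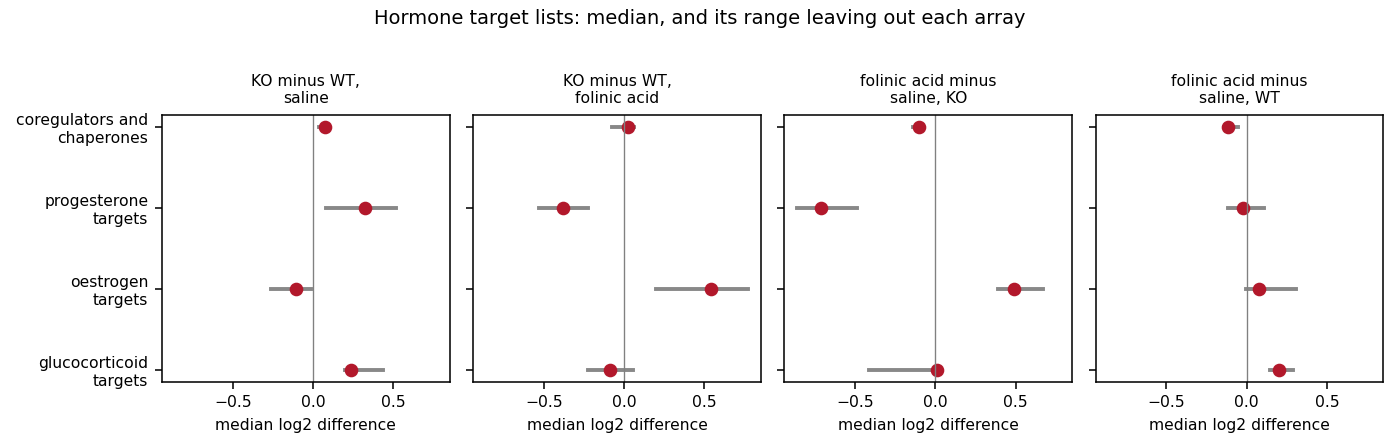
Median log2 difference (x axis) of the 4 lists (y axis) in 4 comparisons, one panel each, with the range when 1 array at a time is left out. After folinic acid in KO uteri the progesterone target median is -0.71 and the oestrogen target median 0.49, while no gene of either list passed the adjusted threshold. The lists were drawn up with earlier results of these data known.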

How the data were processed

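Whole uteri of 14 mice were profiled, 1 array each, in 4 groups taken from the labels. The authors deposited linear intensity values, made with MAS5 per the submitters' processing notes, which give no version. Per the labels' protocols, biotin-labelled target came from a one-cycle assay. The mean after trimming 2% at each end was 500.002 to 500.003 throughout, which shows a single scaling factor per array, and no further normalization was applied. For arrays, their number limits the precision.

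Of 45101 probe sets, 64 controls were left out. Signals below 1 were raised to 1 (0.505% of values) and put on the log2 scale. The filter was the median of the mean log2 signals, a signal of 134, and left 22519 probe sets. A limma 3.58.1 fit (R 4.3.3) with 4 group means and a variance trend had 10 residual degrees of freedom. Tests were two-sided, with Benjamini-Hochberg adjustment over all probe sets kept and a threshold of 0.05. Errors of log2 differences are SE of the fit. The procedure was tested on simulated data for folinic acid against saline in KO uteri. It recovered 45 of 100 changes of 2-fold and 95 of 100 changes of 4-fold, with 8 false calls. The simulated noise was normal and independent for each probe set and array. Shifts shared by the probe sets of an array were not simulated, so these rates need not hold for the deposited data. Promoter windows are RefSeq's.

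The members, lists and tests were chosen with earlier results of these data known. Named genes are all members, genes that were among the 2 of their list with the smallest p in a comparison, and up to 3 genes nearest each member. Of 79 list genes, 69 were on the array and 68 passed the filter. Markers of epithelium, stroma, smooth muscle, endothelium, leukocytes, adipocytes, and ovary and oviduct were summed per array. Alternatives were quantile normalization, an offset of 16, no filter, an upper 35 percent filter, no variance trend, robust variances, array weights, only the groups compared, a replicate block, an actin ratio covariate, and leaving out each array.

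Replicate numbers were not taken to pair the samples. The check is given with the other settings.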

Additional observations from a re-analysis of the deposited data

How the results depend on the processing

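Under 24 other settings the 119 member differences gave 2777 values, of which 2592 kept their sign, 17 moved by more than 1 SE and 0 passed an adjusted p of 0.05. The lowest adjusted p of any member after folinic acid in KO uteri was 0.0876, for Fkbp4 1416362_a_at without KO folinic acid replicate 2.

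Counts of all probe sets past the threshold also changed, and the cause was not tested. With an offset of 16, 2 were called for genotype under saline, 2 under folinic acid and 2 averaged over injections, each against 1. With no filter the counts were 3, 2 and 3, and 2 for folinic acid in KO uteri, against 0. Array weights gave 103 for folinic acid in KO uteri and 245 averaged over genotypes, against 0 and 1. A fit on only the groups compared gave 2 for genotype under saline, and an actin ratio covariate gave 2 for folinic acid averaged over genotypes. Leaving out 1 array at a time gave 1 to 2 for genotype under saline, 1 to 2 for genotype averaged, 0 to 662 for folinic acid in KO uteri and 0 to 150 for folinic acid averaged. The 662 and the 150 came without KO folinic acid replicate 2, and 118 came without WT folinic acid replicate 3.

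With the replicate number as a block, 0 member probe sets were called and 2 were at an unadjusted p under 0.05 for folinic acid in KO uteri, the counts without it. Same-numbered arrays of different groups correlated between -0.34 and 0.35 (19 pairs), and different-numbered arrays between -0.47 and 0.47 (54 pairs). The medians were 0.01 and -0.02. Since not every same-numbered pair was above 0.1, the numbers were not taken to pair the samples, though so strict a rule could not exclude pairing. As a hint from the data only, 8 of 14 arrays were nearest to one of their own number.

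List medians were also computed with quantile normalization and without each array, alternatives chosen after seeing the data. With quantile normalization, folinic acid in KO uteri gave -0.69 for progesterone targets, 0.46 for oestrogen targets and -0.03 for glucocorticoid targets. Low signal limits Esr2, and wide replicate spread limits Fkbp5.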
